A study of Mus musculus with 4 samples.

Results

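Tubular injury markers are genes that nephron epithelium turns on, or makes more of, when it is damaged or under repair. The 10 members described here, Lcn2, Havcr1, Clu, Spp1, Krt8, Krt18, Krt19, Lgals3, Cd44 and Tnfrsf12a, were chosen by gene symbol from the 32285 genes listed in the deposited matrices, and each had UMIs (unique molecular identifiers, 1 per captured transcript) in all 4 libraries. The study sequenced single cells of whole kidney from C57BL/6J mice with a droplet 3′ kit after a sort for viable cells. Mutant mouse 1 carried a point mutation of the mitochondrial glutamate tRNA gene TrnE at a load of 79% and mutant mouse 2 at a load of 76%, and wild-type mice 1 and 2 were the controls. The sources used here give no age, litter or day of preparation, so p-values measure the spread between these 4 mice only.

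The nephron is lined by epithelium that changes along its length, from the proximal tubule, which reclaims most of the filtrate, through the thick ascending limb of the loop to the distal convoluted and connecting tubule and the collecting duct with its principal and intercalated cells. After ischaemic, toxic or obstructive damage these cells are known to secrete proteins such as lipocalin 2, clusterin and osteopontin, to put receptors such as Kim-1 and Fn14 on their surface, and to enlarge their keratin skeleton. Damaged segments differ in which of these genes they use, and several of the genes also serve leukocytes, so the cell type in which each is found matters.

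The libraries held between 7242 and 11744 cell barcodes and between 42121175 and 70013861 UMIs, and 30428 cells were kept in 17 named classes and 2 unnamed clusters. Of 36915 distinct barcodes, 126 occurred in 2 or more libraries. Proximal tubule cells numbered 2612, 1232, 1679 and 3071 in mutant 1, mutant 2, wild type 1 and wild type 2, which is the order of every set of 4 values below. Thick ascending limb cells numbered 112, 150, 106 and 98, distal convoluted and connecting tubule cells 144, 186, 173 and 129, and intercalated cells 153, 103, 66 and 37. All 10, 7, 8 and 7 markers of these 4 classes, in that order, were detected in at least 10% of the class's cells. Wild type 2 stood apart from the other libraries in its cell makeup, with 57 macrophages against 2783, 1757 and 823, and the genotype of a library cannot be checked from these counts. The mutants' counts were made with Cell Ranger 7.0.0 and the wild types' with 7.1.0, so software version and genotype cannot be told apart.

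Levels below are UMIs of a gene per 1000000 UMIs of all cells of that class in that library, so fewer cells of a state and less RNA per cell cannot be told apart in them. The 10 genes fell into different cellular settings. Krt8, Krt18, Spp1 and Clu had their highest levels in the tubule, in the thin limb, the distal nephron or the collecting duct. Fibroblast and mural cells also held Spp1, at 5523 ± 2100, and Clu, at 187 ± 61.5 (SD, n = 2 libraries with at least 20 such cells, both mutant). Cd44, Havcr1 and Lgals3 had their highest mean levels in leukocytes, and Lcn2 was high both in neutrophils and in principal cells. In classes of at least 20 cells, the mean Cd44 level over libraries was 942 ± 377 (SD, n = 3) in neutrophils and 563 ± 137 (SD, n = 4) in monocytes, and it did not exceed 12.04 in any library of the thick ascending limb or 6.32 in the proximal tubule. Lgals3 averaged 1300.5 ± 267 (SD, n = 4) in monocytes and 531 ± 67.8 (SD, n = 4) in macrophages. Havcr1 averaged 27.2 ± 17.8 (SD, n = 4) in B cells and 9.37 ± 5.48 (SD, n = 4) in dendritic cells, and these neighbours in its order overlapped. Havcr1 was at 0 in NK cells, monocytes and neutrophils, and its means in T cells (0.154) and macrophages (0.0141) were below those of the thick ascending limb (4.64) and the proximal tubule (0.818). The label of tubular marker thus does not hold for Cd44, and Havcr1 was led by B cells and dendritic cells.

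**Figure D1:**
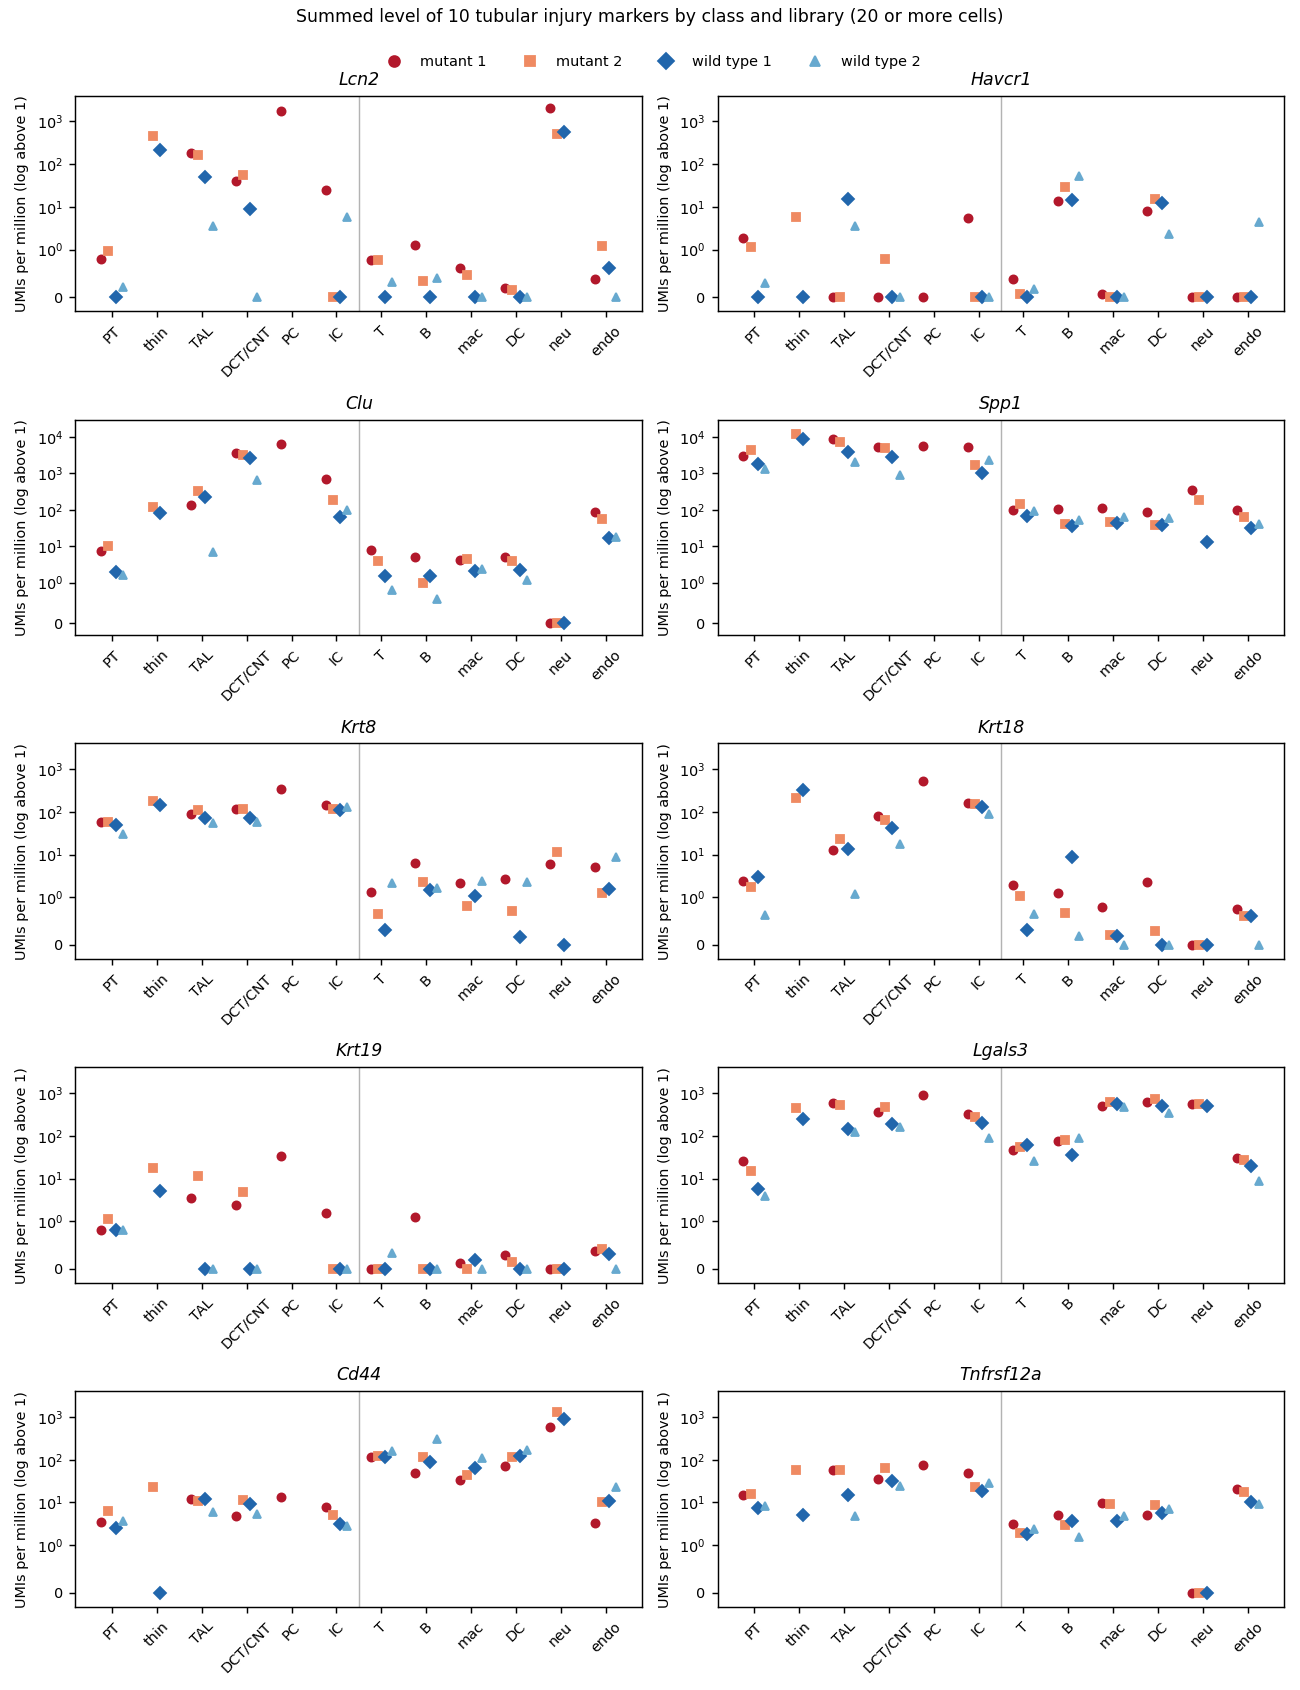
Level of each of the 10 members (UMIs per 1000000, linear from 0 to 1 and logarithmic above) in 12 classes, 1 point per library with at least 20 cells of the class. PT, proximal tubule; thin, thin limb; TAL, thick ascending limb; DCT/CNT, distal convoluted and connecting tubule; PC, principal cell; IC, intercalated cell; T and B, lymphocytes; mac, macrophage; DC, dendritic cell; neu, neutrophil; endo, endothelium. A grey line parts tubular classes on its left from other classes on its right. Every Krt8 point on the left lies above every one on the right, Krt18 in the proximal tubule lies among the B cell points, and Cd44 in T cells, B cells, macrophages, dendritic cells and neutrophils lies above all tubular points.

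Among the secreted members, Lgals3 encodes galectin-3, a galactose-binding lectin made by macrophages and by damaged epithelium, and it was the member with the clearest difference between genotypes. In the thick ascending limb its level was 593 in mutant 1 and 512 in mutant 2, against 145 in wild type 1 and 121 in wild type 2, and the groups did not overlap. The group means were 552 ± 57.3 and 133 ± 16.6 (SD, n = 2 each). Lgals3 rose by a log2 fold change of 2.20 (SE 0.24) with an adjusted p of 0.00972 (edgeR's quasi-likelihood test, Benjamini-Hochberg adjusted over all genes tested in the class). It stayed past the threshold of 0.05 when any 1 of the 4 libraries was left out. Macrophage markers were also present in this class, with all 8 genes detected in both mutants, Mrc1 at 0 in wild type 1, C1qc, Cd68 and Csf1r at 0 in wild type 2, and summed levels of 1270, 553, 805 and 161, which overlap between the groups. Scaled by the C1q complement transcripts in the same cells, macrophage RNA would bring a Lgals3 level of 8.22, 2.53, 8.46 and 0.176. That is at most 5.85% of the measured level in any of the 4 libraries. Monocytes, dendritic cells, neutrophils and principal cells also held Lgals3, and the part of their RNA was not tested.

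Tnfrsf12a encodes Fn14, the receptor for the cytokine TWEAK, and its level in the thick ascending limb was 56.6 in mutant 1, 57.1 in mutant 2, 15.1 in wild type 1 and 4.70 in wild type 2. Both mutants lay above both wild types, and the difference did not pass the test, with a log2 fold change of 2.74 (SE 0.44) and an adjusted p of 0.0515 (edgeR). Lcn2 encodes lipocalin 2, also called NGAL, an iron-siderophore carrier used clinically as an early sign of kidney injury. Its level in the thick ascending limb was 183, 167, 49.7 and 3.52, again without overlap, with a log2 fold change of 2.93 (SE 0.63) and an adjusted p of 0.104 (edgeR). The 2 wild types differed from each other by more than the 2 mutants did. Spp1 encodes osteopontin, a secreted phosphoprotein that binds integrins and Cd44. Its level was 8761, 7021, 3774 and 2005, with a log2 fold change of 1.57 (SE 0.37) and an adjusted p of 0.118 (edgeR).

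Of the 10 members, 8 passed the filter on low counts in the thick ascending limb and 1 of these rose, where 0.13% of the 8451 genes tested rose. The median log2 fold change of the 8 was 1.57, beside -0.01 over all genes tested, and a member that passes the filter only through its high group had to differ. By level, 6 of all 10 members did not overlap and were higher in both mutants. Of the 8 tested, 5 did so, where 17.5% of all tested genes did. Leaving out wild type 1 moved the count of called members to 7, with 5.12% of all genes called higher in that fit, and leaving out wild type 2 moved it to 3 (Lcn2, Lgals3 and Tnfrsf12a), with 1.13%. DESeq2 called 3 members (Spp1, Lgals3 and Tnfrsf12a), where 0.284% of all genes rose by it. Wild type 1 lay between the mutants and wild type 2 for 5 of the 10 members in this class, for 7 in the distal convoluted and connecting tubule, for 4 in the proximal tubule and for 3 in intercalated cells. The share of all genes with this order was not taken, so these counts do not show a trait particular to the members.

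Promoter sequence is shown for Lgals3 and Tnfrsf12a, the 2 members with the smallest p in the thick ascending limb, and for Spp1, the member with a high level in all tubular classes, so that a reader can see which of a few searched motifs stand before their start sites. Each run is the part of the 250 bases before the RefSeq start (GRCm38.p6) that overlaps no GENCODE M21 exon, 5′ to 3′ on the gene's strand, with capitals for motif matches. They lie at chr14:47373610-47373812 (plus strand, inside the annotated Lgals3 gene, before a later first exon), chr17:23677469-23677699 (minus strand, just before Tnfrsf12a) and chr5:104434861-104435110 (plus strand, just before Spp1).
Lgals3: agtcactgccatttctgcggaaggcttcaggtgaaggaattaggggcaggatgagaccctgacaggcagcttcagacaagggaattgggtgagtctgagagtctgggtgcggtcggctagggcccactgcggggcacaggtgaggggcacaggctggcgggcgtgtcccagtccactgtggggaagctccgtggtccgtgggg
Tnfrsf12a: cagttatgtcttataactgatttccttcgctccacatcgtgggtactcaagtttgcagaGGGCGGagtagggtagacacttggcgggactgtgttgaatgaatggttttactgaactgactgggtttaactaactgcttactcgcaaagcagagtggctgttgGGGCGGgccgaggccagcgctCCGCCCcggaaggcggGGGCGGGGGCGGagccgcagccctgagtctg
Spp1: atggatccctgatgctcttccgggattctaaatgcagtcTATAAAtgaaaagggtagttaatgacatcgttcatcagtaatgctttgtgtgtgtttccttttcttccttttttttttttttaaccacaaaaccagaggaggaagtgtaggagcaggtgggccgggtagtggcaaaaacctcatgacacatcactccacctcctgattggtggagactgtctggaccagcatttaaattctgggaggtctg
The motifs searched on both strands of the 250 bases were the AP-1 site TGANTCA, the NF-kB site, the C/EBP site TTGCNNAA, the STAT site TTCNNNGAA, the TATA box TATAAA and the GC box GGGCGG. RefSeq promoters were matched for 8 of the 10 members, 11 sequences in all. Tnfrsf12a held 5 GC boxes, 2 of which abut, and GC boxes occurred in 32.7% of all 32851 promoters in the table. Lgals3 held 1 GC box at 7 bases before its start, outside the printed run. Spp1 held a TATA box at 211 bases, a motif found in 12.4% of promoters. None of the members' sequences held the AP-1, NF-kB or STAT letters, which occurred in 6.75%, 1.41% and 7.02% of promoters. C/EBP letters occurred in 3 of the 11 sequences, from Lcn2, Havcr1 and Spp1, and in 9.56% of promoters. The Spp1 match stood 156 bases before another Spp1 start, outside the printed run.

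In the proximal tubule, Lgals3 and Clu rose in the mutants, both from low levels. Lgals3 was at 26.1 in mutant 1 and 14.7 in mutant 2, against 5.595 and 3.86 in wild types 1 and 2, with no overlap, and its log2 fold change was 2.29 (SE 0.40, adjusted p = 0.0182, edgeR). Clu encodes clusterin, a secreted chaperone that is known to be induced along the damaged tubule. It was at 7.38 in mutant 1 and 10.2 in mutant 2, against 1.93 and 1.62 in wild types 1 and 2, with no overlap, and its log2 fold change was 2.53 (SE 0.49, adjusted p = 0.0218, edgeR). Neither call held without wild type 2, when the adjusted p was 0.0809 for Lgals3 and 0.110 for Clu, and Clu was also lost without mutant 2 (adjusted p = 0.112). Without wild type 1 the count of called members was 6 (Havcr1, Clu, Spp1, Krt8, Lgals3 and Tnfrsf12a), in a fit that called 14.6% of all genes higher. The count was 0 when called doublets were kept or when library totals took the place of TMM scaling. Both held without a proximal tubule cluster poor in mitochondrial transcripts, which made up 48.8% of the class in mutant 1 and between 12.5% and 27.5% in the other libraries, with adjusted p of 0.0377 and 0.0372 (edgeR). Of the 10 members 8 were tested in the proximal tubule and 2 rose, where 0.932% of the 13300 genes tested rose. DESeq2 also called 2, where 1.01% of all genes rose by it. The median log2 fold change of these 8 was 1.28, beside 0.01 over all genes tested. Havcr1, among the 8, passed the filter on low counts only through the mutants, so it had to be higher in them.

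**Figure D2:**
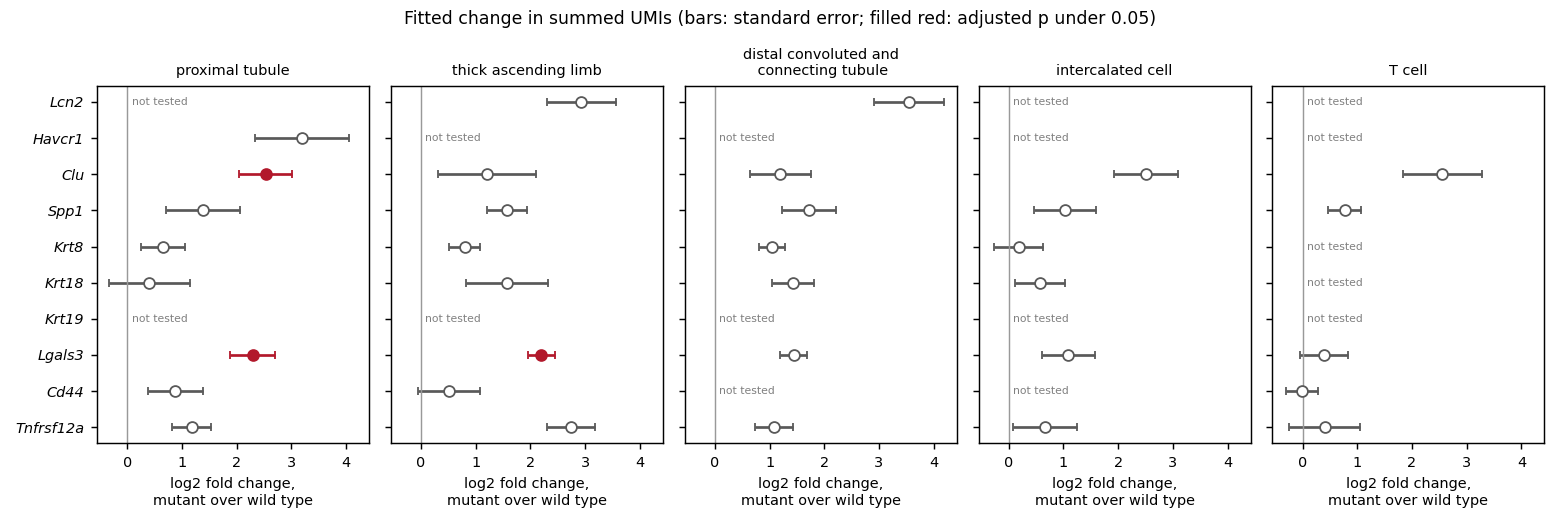
Fitted log2 fold change, mutant over wild type, of each member in 4 tubular classes and in T cells, with the standard error as the bar. Red filled points passed an adjusted p of 0.05, which were Clu and Lgals3 in the proximal tubule and Lgals3 in the thick ascending limb. All tested members of the tubular classes lie to the right of 0, with Krt18 in the proximal tubule and Krt8 in the intercalated cell closest to it. Havcr1 in the proximal tubule and Lcn2 in the distal convoluted and connecting tubule passed the filter on low counts only through the mutants.

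Clu and Lgals3 were also found in other cells of the suspension. Clu in T cells, taken as a reference for free RNA, was at 7.76, 3.81, 1.54 and 0.814, so it was higher in both mutants there too. The proximal tubule level was 0.951, 2.68, 1.25 and 1.99 times the T cell level. The difference between the proximal tubule and T cells in the log2 effect of the genotype was -0.00 (SE 0.27, adjusted p = 1, edgeR), a comparison chosen after the data were seen. For Lgals3 the difference was 1.72 (SE 0.42, adjusted p = 0.208, edgeR), and T cells held 46.2, 54.8, 60.7 and 26.4, which overlap between the genotypes. The C1q-scaled macrophage level of Lgals3 in T cells was 7.84, 3.13, 0.943 and 0.128. Whether T cells make Lgals3 themselves was not tested, so their level is no plain reference for free Lgals3 RNA. The summed level of the 8 macrophage markers in the proximal tubule was 1449, 1203, 740 and 324, with none at 0 in any library, and it too was higher in both mutants. The C1q-scaled macrophage level of Lgals3 was 10.6, 4.40, 1.90 and 0.281, or 40.6%, 29.8%, 33.9% and 7.30% of the measured level, and what remains after subtracting it was 15.5, 10.3, 3.70 and 3.58. The part of free RNA and of attached leukocytes in the proximal values was not tested further.

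**Figure D3:**
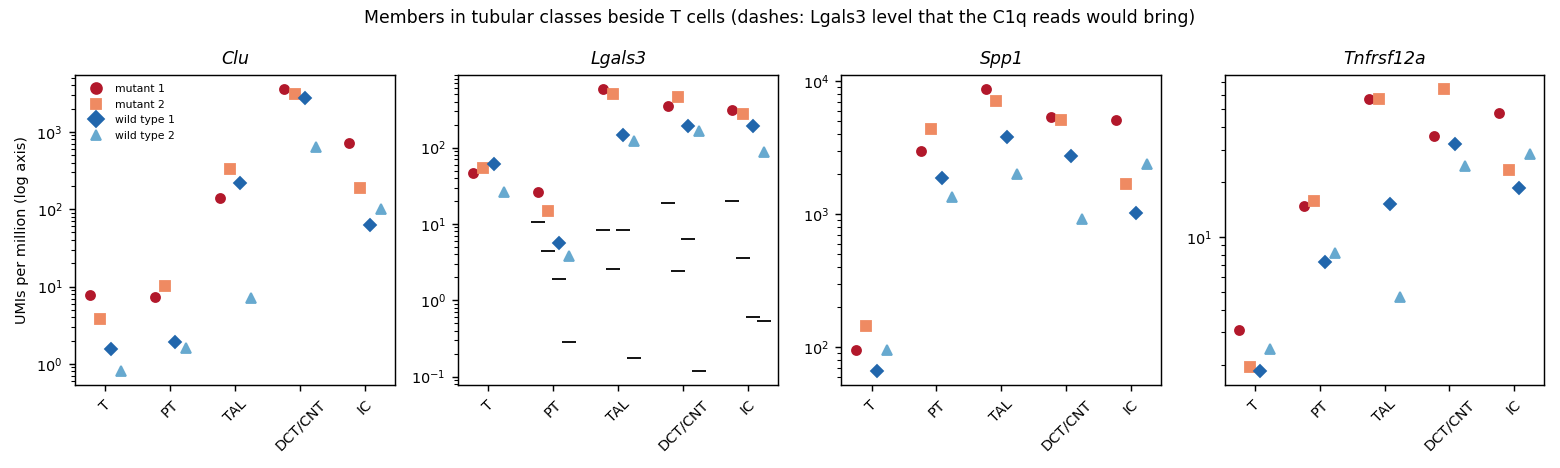
Levels (UMIs per 1000000, log axis) of Clu, Lgals3, Spp1 and Tnfrsf12a in T cells and 4 tubular classes, 1 point per library. Black dashes give the Lgals3 level that macrophage RNA would bring, scaled by C1q transcripts. Clu in the proximal tubule lies between 0.951 and 2.68 times its T cell level, and Lgals3 in the proximal tubule lies below T cells, while both lie above T cells in the distal convoluted and connecting tubule.

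The other members in the proximal tubule did not pass the test. With Clu and Lgals3 counted in, 6 of the 8 tested lay higher in both mutants, where 16.3% of all tested genes did. The 6 also hold Havcr1, whose order was fixed by the filter on low counts. Spp1 was at 2980, 4340, 1857 and 1341, with both mutants above both wild types (log2 fold change 1.38, SE 0.68, adjusted p = 0.514, edgeR). Within the proximal tubule, Spp1 did not overlap and was higher in both mutants in 6 of the 6 clusters that held at least 20 cells of every library, and so did Lgals3, as 0.481% of the 13300 tested genes did. Clu did so in 4 clusters, Tnfrsf12a in 3, Lcn2, Havcr1, Krt8 and Cd44 in 2 each, and Krt18 and Krt19 in 0. Clusters of 1 library share its free RNA and are not replicates. The cluster poor in mitochondrial transcripts held Spp1 at 814, 497, 208 and 374, and a cluster with typical mitochondrial content at 5014, 5576, 2180 and 2481. Clu was highest in the cluster with marker genes of the S3 segment, the last stretch of the proximal tubule, with 32.0, 65.4, 42.9 and 6.31, and there wild type 1 lay between the mutants. Tnfrsf12a was at 14.7, 15.7, 7.32 and 8.19 over the class, without overlap (log2 fold change 1.18, SE 0.35, adjusted p = 0.150, edgeR).

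Havcr1 encodes Kim-1, a receptor for phosphatidylserine on dying cells and the classic marker of an injured proximal tubule. It was found in 10 of 2612, 5 of 1232, 0 of 1679 and 8 of 3071 proximal tubule cells, or 0.383%, 0.406%, 0% and 0.261%, and a count of 0 in wild type 1 allows a share of up to 0.179%. The UMIs behind these shares were 25, 7, 0 and 8, and 1 cell of mutant 1 carried 10 of its 25. In T cells the share was 0.156%, 0.0351%, 0% and 0.123%. The log2 fold change of 3.20 (SE 0.86, adjusted p = 0.102, edgeR) did not pass the test. In the B cell cluster in which it was mainly found, Havcr1 was detected in 28.6%, 29.2%, 18.4% and 37.5% of cells, as Kim-1, under its name Tim-1, is also a receptor of lymphocytes. Over all B cells its log2 fold change was -0.36 (SE 0.56, adjusted p = 0.859, edgeR).

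In the distal convoluted and connecting tubule no member passed the test with edgeR, where 0.0784% of the 8928 genes tested rose, while 6 of the 7 tested members and 14% of all genes had an unadjusted p under 0.05, and DESeq2 called 1, Lgals3, where 0.146% of all genes rose by it. For all 7 the lower mutant exceeded the higher wild type, where 10.6% of all tested genes did. Lcn2 passed the filter on low counts only through the mutants, so its place among the 7 was fixed beforehand. Lcn2 was at 40.4, 56.7, 9.002 and 0, with a log2 fold change of 3.55 (SE 0.64, adjusted p = 0.138, edgeR). Lgals3 was at 351, 459, 190 and 164 (log2 fold change 1.44, SE 0.25, adjusted p = 0.138). Spp1 was at 5356, 5095, 2742 and 914 (log2 fold change 1.71, SE 0.49, adjusted p = 0.267). In each of these 3, wild type 1 lay between the mutants and wild type 2. Clu was higher here than in any other tubular class tested, at 3617, 3117, 2703 and 636 (log2 fold change 1.20, SE 0.56, adjusted p = 0.369). Markers of principal cells, which held Clu at 6227 and Lcn2 at 1715 in mutant 1, the only library with 20 or more of them, summed to 1062, 346, 486 and 65.7 in this class, with Aqp3 and Fxyd4 at 0 in wild type 2. Their part in these values was not tested. Leaving out mutant 1 moved the count of called members from 0 to 5, with 0.558% of all genes called higher, and leaving out mutant 2 moved it to 4, with 0.97%.

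Keratins 8 and 18 form the intermediate filaments of simple epithelium and pair with each other, and Krt19 encodes a further keratin of ducts. In the distal convoluted and connecting tubule Krt8 was at 120, 114, 73.8 and 59.4 (log2 fold change 1.05, SE 0.24, adjusted p = 0.219, edgeR) and Krt18 at 79.5, 63.1, 42.3 and 18.03 (log2 fold change 1.43, SE 0.38, adjusted p = 0.266, edgeR). The groups did not overlap for either gene. In the thick ascending limb Krt8 was at 87.2, 112, 73.8 and 54.0 and Krt18 at 12.96, 23.3, 13.5 and 1.17, and only Krt8 kept the groups apart. In the proximal tubule Krt8 was at 58.2, 57.5, 50.6 and 31.2, while Krt18 stayed between 0.624 and 2.95 in all 4 libraries. Krt19 was at most 11.6 in any library of the 4 tested tubular classes and passed the filter on counts in none. In the thick ascending limb the mutants had 3.54 and 11.6 and both wild types 0, from 3 of 112, 4 of 150, 0 of 106 and 0 of 98 cells.

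Intercalated cells, which secrete acid or base, gave no call with edgeR among 6 tested members, where 0.128% of the 6269 genes tested rose, with 2 at an unadjusted p under 0.05 (5.38% of all genes) and 1, Clu, called by DESeq2, where 0.16% of all genes rose by it. Clu was at 712, 187, 61.8 and 99.98 (log2 fold change 2.51, SE 0.59, adjusted p = 0.113, edgeR), and the 2 mutants differed from each other by more than either wild type did from mutant 2. Lgals3 was at 315, 273, 195 and 88.6 (log2 fold change 1.09, SE 0.49, adjusted p = 0.883, edgeR). The 8 macrophage markers summed to 1530, 263, 52.5 and 65.7 in intercalated cells, with 5 of them at 0 in wild type 1 and 2 in wild type 2, and their part in the Lgals3 values was not tested. Of the 6, 3 lay higher in both mutants, where 15.5% of all tested genes did. Cd44, the hyaluronan and osteopontin receptor, was too low to test here and in the distal convoluted and connecting tubule. In the proximal tubule Cd44 was at 3.54, 6.32, 2.54 and 3.67 and in the thick ascending limb at 11.8, 10.6, 12.04 and 5.87, and the groups overlapped in both.

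T cells and B cells served as a reference for RNA that is free in the suspension. This use is limited for Cd44 and Lgals3, and in B cells for Havcr1, which they held at higher mean levels than the proximal tubule. No member passed the test in T cells (5 tested, 2 at an unadjusted p under 0.05, namely Clu and Spp1, beside 3.64% of all genes) or in B cells (4 tested, none at an unadjusted p under 0.05), and DESeq2 called none in either, with 0% of all genes called in each class by edgeR and 0.0419% of T cell and 0.0305% of B cell genes by DESeq2. The Spp1 level in T cells was 96.2, 144, 66.6 and 94.9, so both mutants lay above both wild types there too. The same held for Clu in T cells, and near the floor for Lcn2 (0.776, 0.775, 0 and 0.326) and Krt18 (1.94, 1.10, 0.308 and 0.651). The share of all T cell genes with this order was not taken. Spp1 was detected in 22.8%, 17.2%, 10.8% and 29.2% of T cells and in 66.0%, 76.6%, 76.4% and 83.8% of proximal tubule cells. Its share of proximal cells ran against its level, so no order was read from that share. After thinning every cell to 1000 UMIs, Spp1 was still found in between 3.84% and 8.32% of T cells and in between 1.82% and 6.32% of B cells. Krt8 was found in at most 0.373% of thinned T cells and Krt18 in at most 0.405%.

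Shares of cells with a UMI, at 1000 UMIs a cell, kept the genotypes apart for Lgals3 in all 4 tested tubular classes. In the thick ascending limb 34.0% and 25.7% of mutant cells and 6.00% and 11.8% of wild-type cells had a Lgals3 UMI, against between 2.24% and 5.05% of T cells. Tnfrsf12a shares there were 4.00%, 4.86%, 4.00% and 0%, and these overlapped. In the distal convoluted and connecting tubule the Lgals3 shares were 25.8%, 24.6%, 14.1% and 17.5%. In intercalated cells the Lgals3 shares were 22.6%, 25%, 12.5% and 6.90%. T cells and thick ascending limb cells had similar depth ranges, with library medians between 3595.5 and 6894 UMIs for the former and between 3637.5 and 6787.5 for the latter before thinning. In the proximal tubule the Lgals3 shares were 1.68%, 1.10%, 0.437% and 0.438%, below the T cell share in every library. Lcn2 was found in 10.0%, 6.94%, 2.00% and 2.35% of thick ascending limb cells, where T cells did not exceed 0.124%. Without thinning, 16 of the 40 pairs of member and tubular class had both mutant shares above both wild-type shares. Among tested members, this was 5 of 8 in the thick ascending limb, where 9.47% of tested genes did so, and 3 of 8 in the proximal tubule (4.02%). It was 2 of 7 in the distal convoluted and connecting tubule (4.47%) and 2 of 6 in intercalated cells (13.8%). Havcr1, among the 3 in the proximal tubule, passed the filter on low counts only through the mutants.

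**Figure D4:**
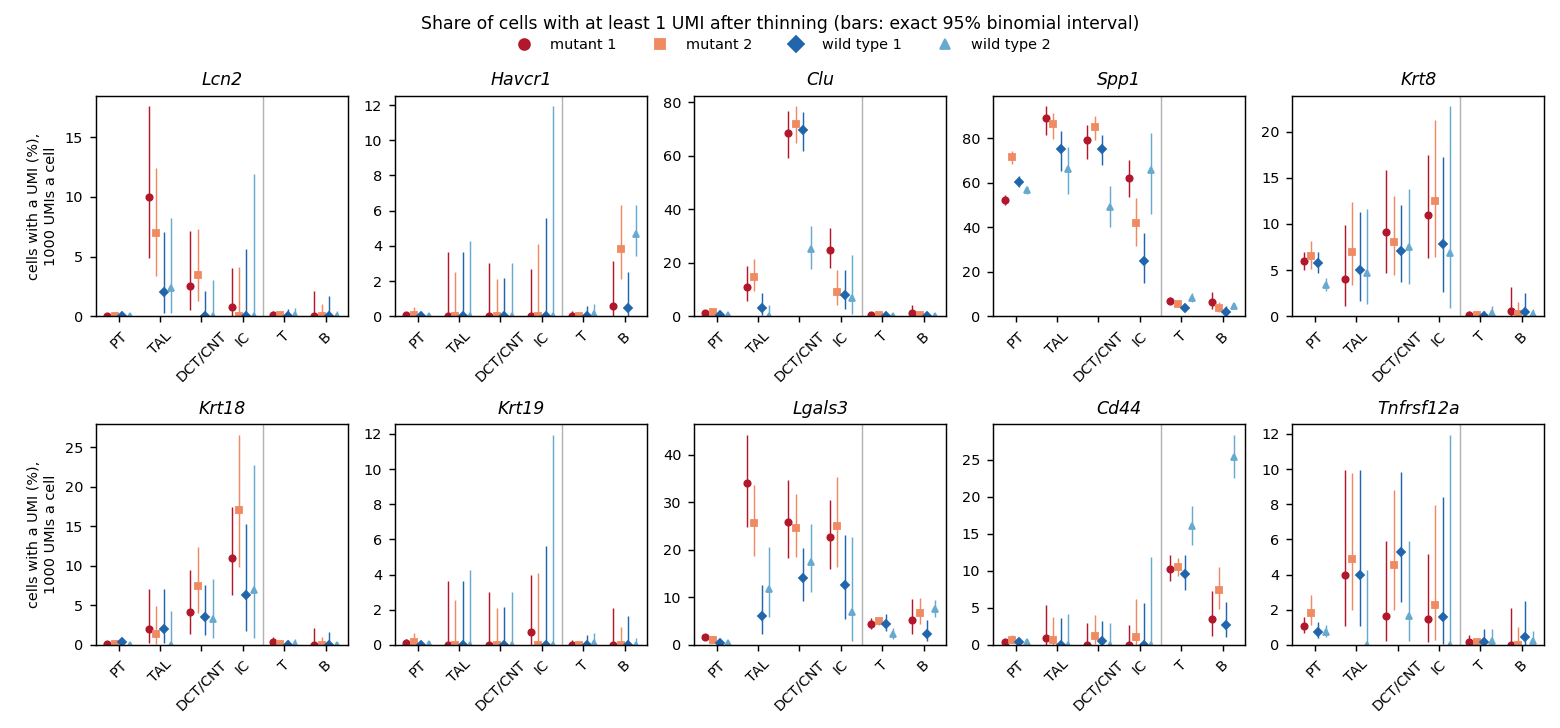
Share of cells with at least 1 UMI of each member after each cell was thinned to 1000 UMIs, in 4 tubular classes and, right of the grey line, in T and B cells as the free RNA reference, with exact 95% Clopper-Pearson intervals that cover counting error only. Lgals3 in the thick ascending limb reaches 34.0% and 25.7% in the mutants. Havcr1 is found mainly in B cells and Cd44 in T and B cells, which are then no free RNA reference for these genes.

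Single cells that held several members at once were found along the nephron and were compared in the 4 tested classes. At 1000 UMIs a cell, 3 or more of the 10 members were found in 26.7%, 25.7%, 16.5% and 6.67% of distal convoluted and connecting tubule cells (32 of 120, 45 of 175, 28 of 170 and 8 of 120). In the thick ascending limb the shares were 10.0%, 12.5%, 4.00% and 1.18% (10 of 100, 18 of 144, 4 of 100 and 1 of 85). In intercalated cells they were 13.9%, 9.09%, 0% and 0% (19 of 137, 8 of 88, 0 of 64 and 0 of 29). The proximal tubule had 0.272%, 0.550%, 0.0624% and 0.0675%. Principal cells, too few to test, had 17 of 24, 7 of 14, 0 of 7 and 2 of 7, and the thin limb, also too small, had 0 of 10, 3 of 22, 4 of 33 and 4 of 11. Both mutants were above both wild types in each of the 4 tested classes, a description without a test, since an exact permutation of 2 mice against 2 cannot pass 0.05.

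**Figure D5:**
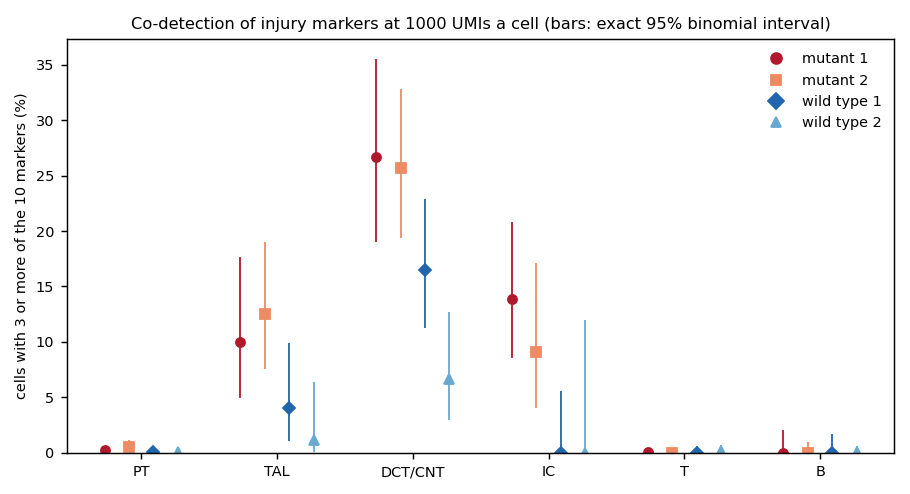
Share of cells with 3 or more of the 10 members at 1000 UMIs a cell, by class and library, with exact 95% Clopper-Pearson intervals that cover counting error only. The mutants reach 26.7% and 25.7% in the distal convoluted and connecting tubule, where wild type 1 lies at 16.5% and wild type 2 at 6.67%, and T and B cells lie near 0.

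Other genes known from tubular injury and repair were followed as a list of 40, none of them a member. The list was chosen with earlier results of these data known, so its counts are a description and no independent support. In the proximal tubule 9 of 35 tested rose and none fell, where 0.932% of the 13300 genes tested rose. The median log2 fold change was 1.09, beside 0.01 over all genes. Vim, which encodes the intermediate filament vimentin of dedifferentiated tubule, was at 22.6, 26.4, 6.31 and 6.17 (log2 fold change 2.18, SE 0.36, adjusted p = 0.0168, edgeR). Cdkn1a, the cell cycle inhibitor p21, was at 22.9, 6.32, 2.34 and 2.90 (log2 fold change 2.66, adjusted p = 0.0201). Fgg, a fibrinogen chain, was at 58.6, 58.5, 19.1 and 21.5 (log2 fold change 1.73, adjusted p = 0.0303), and S100a6, a calcium-binding protein, at 40.9, 41.0, 16.3 and 11.8 (log2 fold change 1.72, adjusted p = 0.0386). Vim and S100a6 are also genes of leukocytes and stroma. The macrophage marker sums given above were higher in both mutants too. The part of other cells in these values was not tested. The count of 9 fell to 0 without wild type 2, to 1 without mutant 1, to 5 without mutant 2 and to 3 without the cluster poor in mitochondrial transcripts, and it grew to 23 without wild type 1, in the fit that called 14.6% of all genes higher.

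In the distal convoluted and connecting tubule 3 of 25 genes of the list rose and none fell, where 0.0784% of the 8928 genes tested rose. Their median log2 fold change over the 25 was 1.00, beside -0.01 over all genes. S100a6 was at 202, 167, 27.9 and 46.7 (log2 fold change 2.57, SE 0.26, adjusted p = 0.0142, edgeR). Dcdc2a, a doublecortin-domain gene, was at 83.2, 63.1, 6.30 and 15.9 (log2 fold change 2.99, SE 0.36, adjusted p = 0.0376). Cryab, a small heat shock protein, was at 105, 72.7, 25.2 and 25.5 (log2 fold change 2.04, SE 0.28, adjusted p = 0.0454). This count was 0 without wild type 1 or without wild type 2, 8 without mutant 1 and 6 without mutant 2, and DESeq2 called 0. Anxa3 was at 29.4, 16.8, 0.900 and 0 (adjusted p = 0.0589). No call was made among 24 tested in the thick ascending limb, with Atf3, Timp2, S100a11 and Krt7 the 4 with the smallest p and adjusted p between 0.136 and 0.161, or among 18 in intercalated cells, with Vim, Cdkn1a, Atf3 and S100a6 the 4 with the smallest p and adjusted p between 0.124 and 0.710. DESeq2 called 1 of the list in the thick ascending limb, where it called 30 of 8451 genes, and 0 in intercalated cells, where it called 12 of 6269. Atf3, a stress transcription factor, was higher in both mutants in the thick ascending limb, at 80.1, 12.7, 6.02 and 3.52. It was lower in both in intercalated cells, at 131, 131, 328 and 554, and in the distal convoluted and connecting tubule, at 30.6, 26.4, 108 and 55.1.

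Binding partners of the members (receptors, ligands, integrins and adaptor proteins, 14 genes) gave no call with edgeR in any tubular class, with 8, 7, 7 and 4 tested in the proximal tubule, the thick ascending limb, the distal convoluted and connecting tubule and intercalated cells. Those with an unadjusted p under 0.05 were Lrp2 and Slc22a17 in the thick ascending limb and Lrp2 in the distal convoluted and connecting tubule. Lrp2, which encodes megalin, a receptor that takes up lipocalin 2, was at 17.7, 8.46, 28.6 and 161 in the thick ascending limb (log2 fold change -2.72, SE 0.66, adjusted p = 0.125, edgeR). Proximal tubule markers in the same cells, with Lrp2 itself among them, summed to 436, 169, 403 and 1100. Wild type 2 was highest and mutant 2 lowest, as for Lrp2 alone. The part of proximal tubule RNA in the Lrp2 values was not tested. Slc22a17, another lipocalin 2 receptor, was at 35.4, 28.5, 18.1 and 16.4 there (log2 fold change 1.04, adjusted p = 0.193). The TWEAK gene Tnfsf12 was at 42.0, 52.7, 44.4 and 44.1 in the proximal tubule (adjusted p = 0.758).

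The genotype effect was compared between the thick ascending limb and the proximal tubule by testing the interaction of class and genotype, with each library as a block, in which 0.502% of 12945 genes passed. Lgals3 differed by -0.05 (SE 0.49) and Spp1 by 0.31 (SE 0.80) on the log2 scale. Tnfrsf12a differed by 1.64 (SE 0.56, adjusted p = 0.249, edgeR), which does not show that the effect is alike in both segments. Of the 10 members 1 passed, Havcr1, whose thick ascending limb counts come from 2 cells. Against T cells the same kind of comparison, chosen after the data were seen, gave no call among 7 members tested in the proximal tubule, 8 in the thick ascending limb and 8 in the distal convoluted and connecting tubule, where 0% of all genes passed (edgeR). At an unadjusted p under 0.05 there were 1, 2 and 1, and DESeq2 was not run on it. Lgals3 in the thick ascending limb differed from T cells by 1.71 (SE 0.40, adjusted p = 0.406) and Tnfrsf12a by 2.54 (SE 0.80, adjusted p = 0.926). Without mutant 2, Lgals3 in the proximal tubule was called.

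Across 57 sums of class and library (17 classes, at least 20 cells each), which share free RNA and depth within a library, the members did not follow 1 pattern. Spp1 and Krt8 were the most alike pair (Pearson r = 0.866 of log2 levels), followed by Krt8 and Krt18 (0.823), and Krt8 and Cd44 were the most opposed (-0.667). Among other genes, Krt18 was most like Cldn4 (0.958) and Cldn8 (0.927), tight junction genes of the collecting duct, and Krt8 was most like Tfcp2l1 (0.949) and Fxyd2 (0.935). Spp1 was most like Wwc1 (0.938) and Cdh16 (0.937), the latter a cadherin of the kidney tubule. Cd44 was most like Cxcr4 (0.906) and Bin2 (0.903), and Havcr1 most like Siglecg (0.792) and Tnfrsf13c (0.753), genes of B cells. Lcn2 was most like Arg2 (0.828), Clu most like Hoxb5os (0.890) and Ddit4l (0.869), and Tnfrsf12a most like Nenf (0.849) and Col18a1 (0.840). Lgals3, shared by monocytes, macrophages and distal tubule, had weaker matches, with Rap1gap2 (0.785) and Acer3 (0.754), and Krt19 had Apela (0.763) and Cldn19 (0.659).

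Positions are those of GENCODE M21 on GRCm38. Krt8 (chr15:101996698-102004482, minus strand) and Krt18 (chr15:102028180-102032027, plus strand) are neighbours. Lgals3 (chr14:47367751-47386160, plus strand) and Clu (chr14:65968483-65981547, plus strand) share a chromosome, as do Lcn2 (chr2:32384633-32388252, minus strand) with Cd44 (chr2:102811141-102901665, minus strand), and Havcr1 (chr11:46735080-46779578, plus strand) with Krt19 (chr11:100140810-100148665, minus strand). Spp1 lies at chr5:104435118-104441050 (plus strand) and Tnfrsf12a at chr17:23675445-23677468 (minus strand). The 3′ kit reads transcript ends, so these levels do not tell the isoforms of a gene apart.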

How the data were processed

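The deposited matrices hold unnormalized UMI counts of each gene in each barcode for 4 libraries, made by the authors with Cell Ranger 7.0.0 (mutants) or 7.1.0 (wild types) per the file headers, on mm10 per the submitters' processing notes. Barcodes under 200 genes or 500 UMIs, or over 50% mitochondrial UMIs, were removed, as were doublets called by Scrublet (between 97 and 239 a library). Cells were clustered with scanpy 1.11.5 (2000 variable genes without the members and the other injury genes, 30 components, 15 neighbours, Leiden resolution 1), and mixed clusters were split at 0.5, a step chosen after seeing the data. Clusters were named from marker lists. UMIs were summed per library and class, the mouse being the replicate (2 against 2), and tested over all genes with edgeR 4.0.16 (quasi-likelihood, TMM, filterByExpr, Benjamini-Hochberg within a class, threshold 0.05), with DESeq2 1.42.0 as an alternative. The edgeR script was tested on simulated data.

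Shares carry exact 95% Clopper-Pearson intervals, and intervals and the limit that a count of 0 allows (3 counts) cover counting error only. For equal depth each cell was thinned to 1000 UMIs. Classes with under 20 cells in a library were not tested, which left out principal cells and the thin limb. The genes named are the 10 members, up to 4 genes of each other list with the smallest p in a class, and genes most like a member. The members and lists were chosen with earlier results of these data known. Nothing in the labels says that a library number marks a shared litter or day, so the main test has no pairing.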

Additional observations from a re-analysis of the deposited data

Results flagged for a closer look

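The genotype effect on Havcr1 differed between the thick ascending limb and the proximal tubule by -11.73 on the log2 scale (SE 2.73, adjusted p = 0.00823, edgeR's interaction test with the library as a block), the test of the difference itself having passed the threshold. The thick ascending limb held 0, 0, 10 and 3 Havcr1 UMIs in mutant 1, mutant 2, wild type 1 and wild type 2, from 1 cell in each wild type, and the proximal tubule held 25, 7, 0 and 8. Since the mutants were at 0 in the first and wild type 1 at 0 in the second, the fitted size depends on the prior count and is no bound. The adjusted p was 0.931 without mutant 1, 0.587 without mutant 2, 0.403 without wild type 1 and 0.0719 without wild type 2.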

How the results depend on the processing

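Counts of called members moved with the settings. In the proximal tubule the count of 2 became 0 with library totals (0% of all genes called higher) and 0 with doublet calls kept (0.00752%), and it moved when 1 library was left out. In the thick ascending limb the count of 1 became 7 with no filter on low counts (6 higher and Havcr1 lower, with 1.26% of all genes called higher) and 3 with DESeq2 (0.284%). It was 2 with RLE size factors (0.213% of all genes), with mitochondrial genes left out (0.282%) and with at most 25% mitochondrial UMIs (0.516%). It was also 2 with at least 1500 UMIs (0.143%) and with injury genes kept in clustering (0.297%), and it moved when 1 library was left out. In the distal convoluted and connecting tubule the count of 0 became 1 with library totals (0.112% of all genes called higher) and 1 with DESeq2 (0.146%), and it moved when 1 library was left out. In intercalated cells the count of 0 became 1 with no filter (0.398% of all genes called higher) and 1 with DESeq2 (0.16%). For the difference between thick ascending limb and proximal tubule the count of 1 became 0 with library totals (23 of 12945 genes called) and 0 with no filter (32 of 22075). It also moved when 1 library was left out, as did the count for the proximal tubule against T cells. The 9 other injury genes called in the proximal tubule became 0 with library totals (0 of 13300 genes called), 14 with no filter (466 of 21654) and 4 with mitochondrial genes left out (94 of 13370). They became 5 with at most 25% mitochondrial UMIs (92 of 13225), 0 with doublet calls kept (1 of 13294) and 5 at resolution 2 (101 of 13211). Without the cluster poor in mitochondrial transcripts they were 3 (96 of 12977), and the count moved when 1 library was left out. The cause of these moves was not tested.

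Fold changes reversed without wild type 2 for Krt18 in the proximal tubule (from -0.50 to 2.14 over the libraries left out), Cd44 in the thick ascending limb (from -0.034 to 1.19) and Lgals3 in T cells (from -0.14 to 1.23). For Clu in the proximal tubule against T cells the range was -0.96 to 0.86, with 0.86 without mutant 1 and 0.13 without wild type 2. With the replicate number as a block, 3 members were called in the thick ascending limb, where 0.485% of all genes were called higher. In the distal convoluted and connecting tubule 4 were called (0.717% of all genes), and in the proximal tubule Havcr1 was added (adjusted p = 0.0281, edgeR, with 1.64% of all genes). The log2 difference between mutants 1 and 2 was correlated, across the genes tested, with that between wild types 1 and 2. The correlation was -0.23 in the proximal tubule, 0.02 in the thick ascending limb and 0.04 in the distal convoluted and connecting tubule. It was -0.24 in intercalated cells, 0.25 in T cells and 0.26 in B cells, which gives no single answer on pairing. With crossed pairing, chosen after seeing the data, the counts were 2 in the proximal tubule, 2 in the thick ascending limb, 0 in the distal convoluted and connecting tubule and 1 in intercalated cells. The shares of all genes called higher in these fits were 1.42%, 0.272%, 0.056% and 0.622%, in the same order. Library totals moved the median log2 fold change of all genes to -0.20 in the proximal tubule, -0.17 in the thick ascending limb and -0.27 in the distal convoluted and connecting tubule, and all 29 member fold changes in the 4 tubular classes stayed positive there. Among these 29, Havcr1 in the proximal tubule and Lcn2 in the distal convoluted and connecting tubule passed the filter only through the mutants. The 37 intercalated cells of wild type 2 limit what that class can show.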

Other observations

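A cluster of 87 cells that met no naming rule (45, 29, 5 and 8 in mutant 1, mutant 2, wild type 1 and wild type 2) held 205 of the 323 Krt19 UMIs in all kept cells, or 63.5%, and was singled out after its values were seen. Of its cells 76 had a UMI of Spp1, 63 of Clu, 54 of Lgals3, 47 of Krt8, 30 of Krt18, 24 of Lcn2, 23 of Tnfrsf12a and 15 of Krt19. Distal convoluted and connecting tubule markers had the highest summed level in it, 13847 UMIs per 1000000. The cluster was not stable: with doublet calls kept 52 of its cells fell in an unnamed cluster led by Krt15 and 32 in the distal convoluted and connecting tubule, and at resolution 2 it was 82 cells of the principal cell class.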
